A study of Mus musculus with 12 samples.

Results

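The nuclear-encoded subunits of the respiratory chain were followed in mouse embryonic stem cells of the TT2 line that had lost both Rlf and Zfp292, a pair of related zinc finger protein genes. Subunit genes were taken by symbol: names starting with Ndufa, Ndufb, Ndufc, Ndufs or Ndufv for complex I, Sdha to Sdhd for complex II, Uqcr for complex III, Cox4 to Cox8 followed by a letter for complex IV, and Atp5 for complex V. Assembly factors (Ndufaf) and pseudogenes (-ps) were left out. The rule found 86 of the 17901 genes in the deposited table, with 40 in complex I, 4 in complex II, 8 in complex III, 17 in complex IV and 17 in complex V. Of these, 84 were tested, as were 15750 genes in all, after a filter that asked for a normalized count of 10 or more in at least 3 libraries.

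The 4 groups held 3 libraries each. They were Rlf/Zfp292 double knockout (DKO) and wild-type (WT) cells kept for 72 hours in ES medium without LIF and with 5 µM retinoic acid (RA), and DKO and WT cells kept undifferentiated in the same medium with LIF, a condition labelled Serum/LIF. That medium held Knockout Serum Replacement and a little fetal bovine serum. The libraries are labelled as biological replicates, but no label says whether the DKO libraries came from more than 1 clone, so the p-values measure the spread between these samples only. Total RNA was extracted and read in pairs of reads, per the protocol, although the labels name the molecule as genomic DNA, and the values are treated here as RNA. The sources used here do not say how the libraries were made, whether strand was kept or how many clones were used.

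The respiratory chain sits in the inner mitochondrial membrane. Complex I takes electrons from NADH and complex II from succinate, complex III passes them to cytochrome c, complex IV gives them to oxygen, and complex V, the ATP synthase, uses the proton gradient so made. Most subunits are encoded in the nucleus and a few of the core ones in mitochondrial DNA. Several complex IV subunits have paralogous isoforms that are used in particular tissues, such as muscle, lung or testis. Pluripotent stem cells are known for a high use of glycolysis beside respiration.

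The libraries held 30869766 to 40236799 reads assigned to genes. The deletion was visible in the targeted genes: Zfp292 had 0 reads in all 6 DKO libraries, against 2849 to 3975 in RA-treated WT and 4468 to 5522 in Serum/LIF WT libraries, and Rlf had at most 3 reads in a DKO library, against at least 2463 in a WT library. RA-treated WT replicate 2 stood apart from its group. Its rRNA share of the repeat signal was 41.7%, against 4.14 to 7.28% in the other 11 libraries, so the subunit counts that rest on it are also given without it.

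After RA, the subunit genes took a smaller share of all gene reads in DKO than in WT cells, and complexes IV and V carried most of that gap. All subunit genes together took 0.886 to 0.904% of gene reads in RA-treated DKO libraries, against 0.985 to 1.06% in RA-treated WT libraries. The ranges did not overlap. The Serum/LIF shares were 1.12 to 1.15% in DKO and 1.13 to 1.21% in WT libraries, which overlapped. Complex IV genes took 0.152 to 0.158% in RA-treated DKO, against 0.193 to 0.213% in RA-treated WT libraries, and complex V genes 0.373 to 0.379% against 0.412 to 0.442%. In bulk RNA, fewer cells with a high level and less RNA per cell cannot be told apart.

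**Figure D1:**
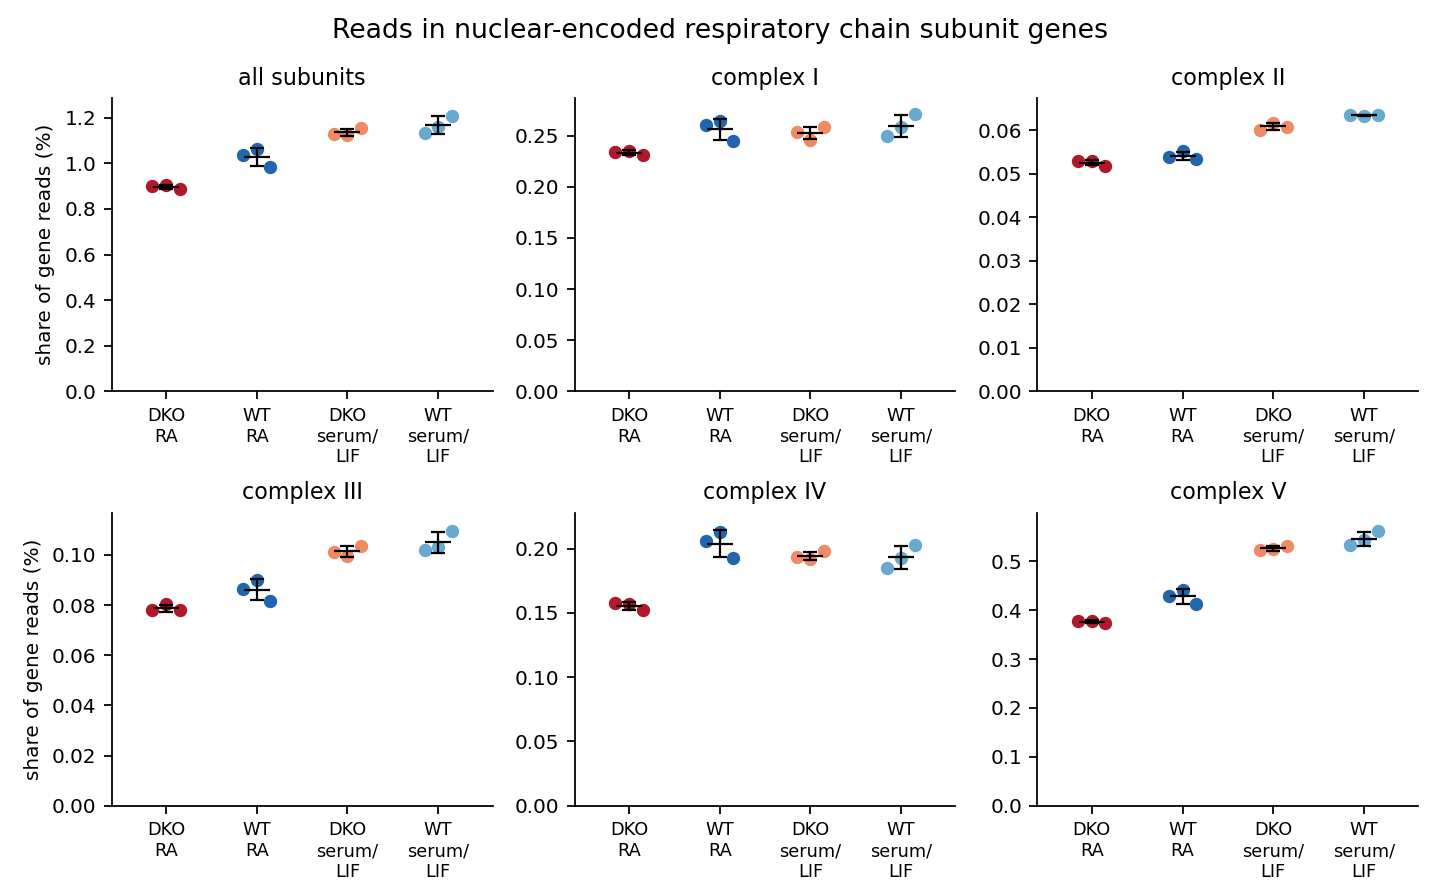
Share of gene reads (%) in all subunit genes and in the genes of each complex; each point is 1 library, the long horizontal line is the mean of 3 libraries and the error bar 1 SD. RA-treated DKO libraries (0.886 to 0.904% over all subunit genes) lie below RA-treated WT libraries (0.985 to 1.06%).

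Gene by gene, DKO against WT cells after RA gave 35 of the 84 tested subunit genes called lower, against 20.7% of all tested genes, and 4 called higher, against 22.0% of all. The lower genes made up 41.7% of the subunits tested. A gene was called where limma's Benjamini-Hochberg adjusted p, taken over all 15750 genes, was under 0.05. The median log2 fold change of DKO over WT cells was −0.14 over the subunit genes and 0.01 over all genes. Without RA-treated WT replicate 2, 30 were called lower, against 18.0% of all genes, and 4 higher, against 19.8%, with a median of −0.11. Genes called lower made up 14 of 39 in complex I, 1 of 4 in complex II, 3 of 8 in complex III, 8 of 16 in complex IV and 9 of 17 in complex V. Without that library they were 11, 1, 3, 8 and 7, in the same order. Sdha, Cox6b2 and Cox7a1 were among those called higher.

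**Figure D2:**
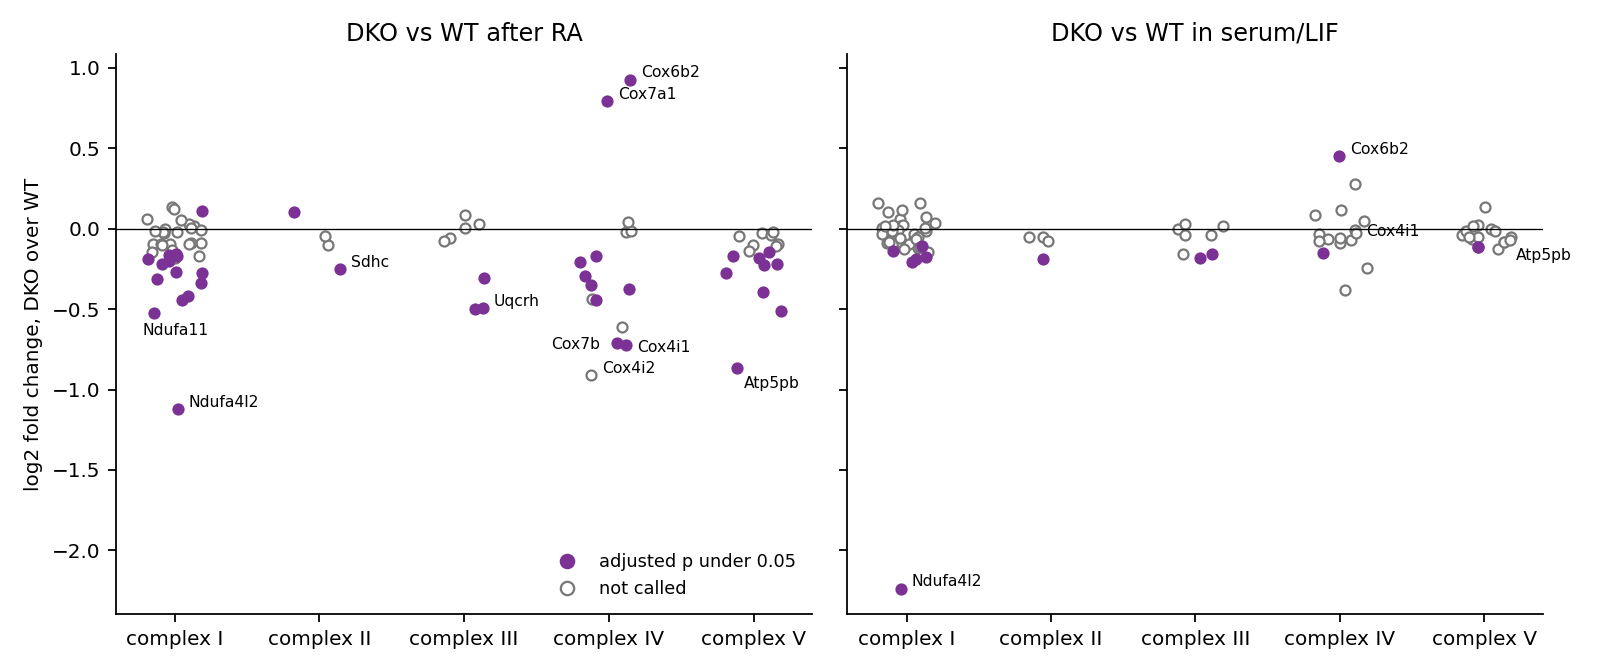
Log2 fold change of DKO over WT for each tested subunit gene, by complex, after RA and in Serum/LIF; filled points are genes with an adjusted p under 0.05. After RA 35 genes are called lower and 4 higher, and in Serum/LIF 12 are called lower and 1 higher.

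Atp5pb, which encodes the b subunit in the peripheral stalk of the ATP synthase, had the largest drop among genes of complex V. Its normalized counts were 7283, 7190 and 7256 in RA-treated DKO libraries, against 13469, 13383 and 12692 in RA-treated WT libraries. The Serum/LIF counts were 9757, 10357 and 9313 in DKO, against 10146, 10225 and 10541 in WT libraries. The groups were far apart after RA, while in Serum/LIF they overlapped. After RA the DKO level was 0.549 times the WT level (log2 fold change −0.86 ± 0.04 SE, adjusted p = 2e-14), and in Serum/LIF the change was −0.07 ± 0.04 (adjusted p = 0.168). Subtracting the genotype effect in Serum/LIF from the one after RA gives the interaction, which was −0.79 ± 0.06 (adjusted p = 1.08e-10).

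Cox4i1, the common isoform of cytochrome c oxidase subunit 4, and Cox7b, a small subunit of the same complex, followed the same order. Cox4i1 had 14577, 14104 and 13533 in RA-treated DKO, against 23221, 24312 and 22170 in RA-treated WT libraries, 0.606 times the WT level (−0.72 ± 0.04, adjusted p = 2.69e-12). In Serum/LIF the DKO values of 17827, 17206 and 18341 lay among the WT values of 16867, 17770 and 19038. Cox7b had 1970, 2081 and 2157 in RA-treated DKO, against 3509, 3450 and 3193 in RA-treated WT libraries, 0.611 times the WT level (−0.71 ± 0.05, adjusted p = 1.25e-11). Its Serum/LIF counts were 4211, 4358 and 4193 in DKO, against 4412, 4408 and 4534 in WT libraries, and that small gap was not called. Both had an interaction, of −0.72 ± 0.06 for Cox4i1 (adjusted p = 3.04e-09) and −0.64 ± 0.07 for Cox7b (adjusted p = 5.55e-08). In both genes every RA-treated DKO library lay below every RA-treated WT library.

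Ndufa11, an accessory subunit in the membrane arm of complex I, was the most changed complex I gene among those with a mean of 100 or more. It had 2271, 2460 and 2303 in RA-treated DKO, against 3377, 3667 and 3072 in RA-treated WT libraries (−0.52 ± 0.06, adjusted p = 3.22e-07). Before RA, in Serum/LIF, the values were 2693, 2451 and 2824 in DKO and 2637, 2557 and 2837 in WT libraries, which overlapped. Its interaction was −0.51 ± 0.09 (adjusted p = 9.58e-05). The calls of Atp5pb, Cox4i1, Cox7b and Ndufa11 after RA and in the interaction held under the 25 alternatives run for the comparison after RA and the 24 run for the interaction, each left-out library included.

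**Figure D3:**
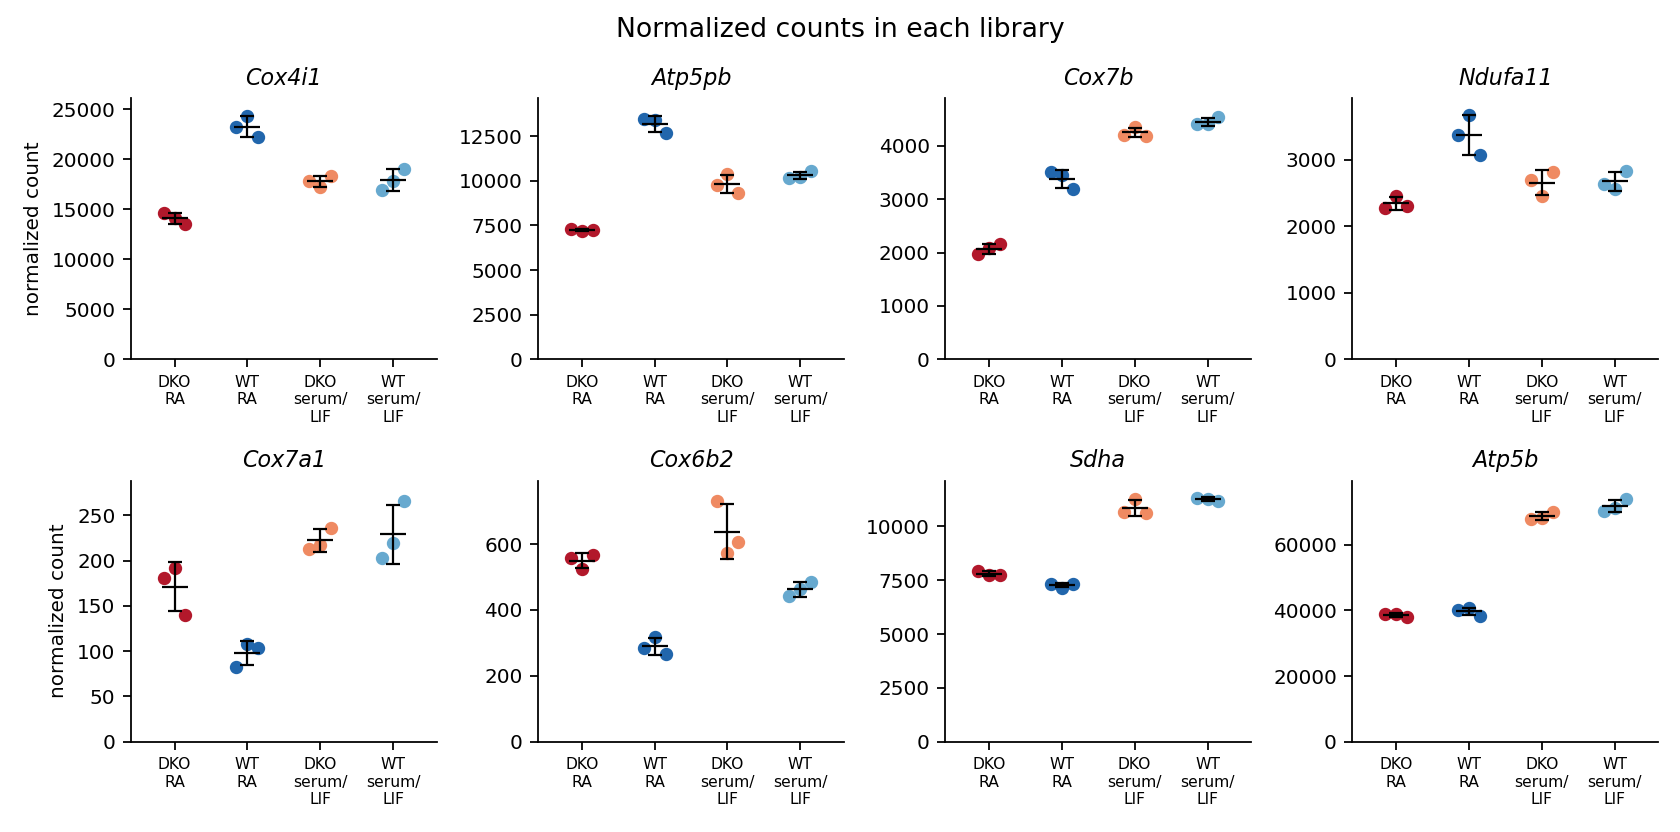
Normalized counts of single subunit genes in each of the 12 libraries; each point is 1 library, the long horizontal line is the group mean and the error bar 1 SD (n = 3). Atp5pb, Cox4i1 and Cox7b are lower in RA-treated DKO than in RA-treated WT libraries, and Cox7a1 and Cox6b2 are higher.

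The 250 bases before the annotated start of selected genes are shown from the RefSeq promoter table (GRCm38.p6). Of the genes lower in the interaction, Atp5pb, Cox7b and Ndufa11 were picked because they share a short element before or just after their start. Sdha, Cox7a1 and Cox6b2, which were higher in DKO cells after RA, lack it, as do most subunit genes, so the contrast follows from the picking. Atp5md, Cox6b1 and Uqcrh, also lower in the interaction, lack it too, and Cox4i1 had no window. Sequences run 5′ to 3′ on the strand of the gene and end at the base before its start. Capitals mark matches, on either strand, to the letters TCTCGCGA or to the cores GCGCANGCG (NRF1), CCGGAAG (ETS factors such as GABP), AAGATGGCG (YY1), TGACGTCA (the cyclic AMP response element, CRE) and TACGTG (the hypoxia response element, HRE). The windows are Atp5pb at chr3:105959264-105959513, minus strand; Cox7b at chrX:106015450-106015699, plus strand; Ndufa11 at chr17:56717512-56717761, plus strand; Sdha at chr13:74350241-74350490, minus strand; Cox7a1 at chr7:30183921-30184170, plus strand; and Cox6b2 at chr7:4753095-4753344, minus strand.
Atp5pb: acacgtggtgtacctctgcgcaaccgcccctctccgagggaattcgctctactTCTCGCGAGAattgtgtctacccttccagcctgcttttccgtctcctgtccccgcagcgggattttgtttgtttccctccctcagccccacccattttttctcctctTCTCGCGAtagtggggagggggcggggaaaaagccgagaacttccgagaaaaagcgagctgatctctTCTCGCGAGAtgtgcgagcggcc
Cox7b: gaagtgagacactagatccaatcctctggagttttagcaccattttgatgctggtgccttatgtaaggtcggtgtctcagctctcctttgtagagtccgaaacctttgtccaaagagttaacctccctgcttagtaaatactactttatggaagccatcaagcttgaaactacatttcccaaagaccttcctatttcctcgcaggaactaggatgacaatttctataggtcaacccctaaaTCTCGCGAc
Ndufa11: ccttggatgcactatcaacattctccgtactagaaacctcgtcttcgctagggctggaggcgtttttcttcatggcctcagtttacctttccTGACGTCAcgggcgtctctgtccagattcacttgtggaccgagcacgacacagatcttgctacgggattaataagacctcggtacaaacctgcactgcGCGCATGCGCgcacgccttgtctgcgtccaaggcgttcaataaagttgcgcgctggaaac
Sdha: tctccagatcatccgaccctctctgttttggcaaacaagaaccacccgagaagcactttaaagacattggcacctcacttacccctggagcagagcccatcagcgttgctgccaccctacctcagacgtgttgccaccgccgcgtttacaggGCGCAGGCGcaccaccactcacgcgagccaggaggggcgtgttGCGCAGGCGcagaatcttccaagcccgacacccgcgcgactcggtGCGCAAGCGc
Cox7a1: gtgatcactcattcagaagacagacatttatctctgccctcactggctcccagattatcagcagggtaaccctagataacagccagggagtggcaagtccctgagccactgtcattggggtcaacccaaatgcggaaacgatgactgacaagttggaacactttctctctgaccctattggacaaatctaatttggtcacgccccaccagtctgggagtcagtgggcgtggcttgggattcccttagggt
Cox6b2: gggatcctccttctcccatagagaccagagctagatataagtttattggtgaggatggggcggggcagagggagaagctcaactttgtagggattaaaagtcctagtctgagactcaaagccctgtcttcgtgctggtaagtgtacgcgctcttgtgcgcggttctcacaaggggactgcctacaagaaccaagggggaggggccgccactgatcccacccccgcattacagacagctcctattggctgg

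TCTCGCGA lies at 3 places before the Atp5pb start, at −197, −90 and −23, counted from the start to the first base of the match. At −197 and −23 it runs on into its own reverse complement, so that both strands match there. Cox7b holds it at −9. In Ndufa11 it lies on the opposite strand within the transcript, from 1 base after the start, outside the bases shown. The capitals of Ndufa11 mark NRF1 and CRE cores. The capitals of Sdha mark 3 NRF1 cores, and the windows of Cox7a1 and Cox6b2 hold none of the 6 elements. TCTCGCGA was added to the search after these windows and the values of their genes had been seen, so its count is a description.

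Over all 74 windows of the 69 subunit genes that matched the table by symbol, TCTCGCGA was found in 6.76%, against 1.73% of the 17417 windows of genes in the deposited table and 0.995% of all 32851 windows. Of the 17 windows of subunit genes lower in the interaction described below, 3 hold it. The 4 subunit genes with it were Atp5pb, Cox7b, Ndufa11 and Ndufa7, the last in 2 overlapping windows that are both counted. All 4 were called lower in DKO cells after RA, against 41.7% of tested subunit genes and 20.7% of all genes. The calls of Atp5pb, Cox7b and Ndufa11 were known when the element was chosen, so they add no support. Ndufa7, an accessory subunit of complex I, had 2314, 2408 and 2290 in RA-treated DKO, against 2615, 2734 and 2547 in RA-treated WT libraries (−0.17 ± 0.06, adjusted p = 0.0304), and its interaction of −0.08 ± 0.09 was not called. The Ndufa7 call was lost without RA-treated DKO replicate 1 (adjusted p = 0.084), DKO replicate 3 (0.0958), WT replicate 1 (0.062) or WT replicate 2 (0.106). The NRF1 core stood in 28.4% of subunit windows, against 10.6% of the windows of genes in the deposited table and 6.25% of all windows. The ETS core stood in 23.0%, against 14.0% and 8.86%, the YY1 core in 9.46%, against 2.24% and 1.40%, CRE in 5.41%, against 2.66% and 1.79%, and HRE in 1.35%, against 3.40% and 3.23%. NRF1 and GABP are known as regulators of respiratory chain genes. A match is a run of letters and does not show that a factor binds there.

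The other ATP synthase genes called lower after RA were Atp5c1, Atp5d, Atp5g1, Atp5g3, Atp5h, Atp5j, Atp5md and Atp5o. Atp5c1, the γ subunit of the turning central stalk, had 5580, 5902 and 5742 in RA-treated DKO, against 8270, 8382 and 7899 in RA-treated WT libraries (−0.51 ± 0.04, adjusted p = 6.93e-11). Atp5md, a small subunit of the membrane part, had 1618, 1604 and 1589 against 2124, 2146 and 2042 (−0.39 ± 0.07, adjusted p = 8.16e-05). Atp5md overlaps Taf5 on the other strand, and 1 pseudogene is named after Atp5c1, so their counts may hold reads of those genes. Neither pair of groups overlapped. The catalytic subunits were not called: Atp5b, the β subunit, had 38913, 38842 and 37962 in RA-treated DKO and 40032, 40678 and 38402 in RA-treated WT libraries (−0.04), and Atp5a1, the α subunit, had 25341, 25048 and 25444 against 25625, 26189 and 25402 (−0.03). Atp5g3, 1 of 3 genes for the same ring protein, lost its call without RA-treated WT replicate 2 (adjusted p = 0.0559).

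In complex IV the genes called lower after RA besides Cox4i1 and Cox7b were Cox5b, Cox6a1, Cox6b1, Cox7a2, Cox7a2l and Cox8a. Cox7a2, the widely used isoform of subunit 7a, had 2489, 2258 and 2277 in RA-treated DKO, against 3207, 3375 and 2963 in RA-treated WT libraries (−0.44 ± 0.05, adjusted p = 1.79e-07). Cox6b1, the widely used isoform of subunit 6b, had 3045, 3184 and 2826 against 4092, 3839 and 3785 (−0.37 ± 0.05, adjusted p = 7.01e-07). For all 6 genes every RA-treated DKO library lay below every RA-treated WT library. Cox5a and Cox7c were not called, at −0.02 and 0.04. Cox7a2l, which is known to take part in joining complexes into supercomplexes rather than as a fixed subunit, was called lower by −0.20 ± 0.05 (adjusted p = 0.000928). The Cox8a call was lost without RA-treated DKO replicate 1 (adjusted p = 0.07) or RA-treated WT replicate 1 (0.0851).

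In complex III the 3 genes called lower after RA encode small subunits, and the core proteins were not called. Uqcrh, the hinge protein that helps cytochrome c to dock, had 2869, 2871 and 2820 in RA-treated DKO, against 4009, 4254 and 3819 in RA-treated WT libraries (−0.50 ± 0.05, adjusted p = 1.32e-08). Uqcrq had 1890, 1993 and 1968 against 2797, 2928 and 2556 (−0.50 ± 0.06, adjusted p = 2.28e-07). Uqcr11 was also called lower. Uqcrc1 and Uqcrc2, the core proteins, and Uqcrfs1, the iron-sulfur protein, stood at 0.09, 0.03 and −0.07. The Uqcrh count may hold reads of the 2 pseudogenes named after it. Uqcrh lies 5.07 Mb from the deleted Rlf on chromosome 4, and the effect of that distance was not tested.

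Complex I genes called lower after RA were Ndufa4, Ndufa4l2, Ndufa7, Ndufa11, Ndufa12, Ndufb2, Ndufb5, Ndufb7, Ndufb9, Ndufb11, Ndufs3, Ndufs5, Ndufv1 and Ndufv2. Ndufs5, an accessory subunit 2.50 Mb from Rlf, had 1107, 1196 and 1064 in RA-treated DKO, against 1597, 1521 and 1453 in RA-treated WT libraries (−0.44 ± 0.06, adjusted p = 2.49e-06). Ndufb9, another accessory subunit, had 2420, 2489 and 2410 against 3243, 3485 and 3050 (−0.42 ± 0.06, adjusted p = 3.6e-06). Of the catalytic core, Ndufv1, which binds NADH, was called lower by −0.19 ± 0.04 (adjusted p = 0.00137) and Ndufv2 by −0.27 ± 0.05 (adjusted p = 0.000273), Ndufs3 was also called lower, and Ndufs1, with 3837, 3792 and 4104 in RA-treated DKO and 4061, 3855 and 3920 in RA-treated WT libraries, stood at −0.01. Ndufa4 is named as a complex I subunit but is known to work in complex IV, and its call was lost without RA-treated DKO replicate 3 (adjusted p = 0.0603).

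The genes higher in DKO cells after RA included 2 tissue isoforms of complex IV. Cox7a1, the heart and muscle isoform of subunit 7a, had 181, 192 and 140 in RA-treated DKO, against 82.9, 108 and 103 in RA-treated WT libraries, 1.74 times the WT level (0.79 ± 0.16, adjusted p = 0.00028). Cox6b2, the testis isoform of subunit 6b, had 557, 523 and 567 against 284, 318 and 266, 1.9 times the WT level (0.93 ± 0.10, adjusted p = 6.37e-08). In both, every RA-treated DKO library lay above every RA-treated WT library. Neither was higher in RA-treated than in Serum/LIF cells. Cox7a1 changed by −0.39 in DKO and −1.21 in WT cells, and Cox6b2 by −0.21 (not called) and −0.68. For Cox7a1 the higher level in DKO cells after RA thus goes with a smaller fall. Cox6b2 was already higher in DKO cells in Serum/LIF (0.45), so the smaller fall is only part of its difference after RA. Sdha, the flavoprotein of complex II, had 7942, 7739 and 7742 against 7344, 7154 and 7321 (0.10 ± 0.04, adjusted p = 0.0217), and lost its call without RA-treated DKO replicate 1 (adjusted p = 0.0901) or without RA-treated WT replicate 2 (0.0623). Sdhc, a membrane anchor of complex II, was lower in DKO cells, with 3626, 3557 and 3500 against 4111, 4432 and 4169 (−0.25 ± 0.04, adjusted p = 3.92e-05).

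Set against the widely used isoform per kilobase of transcript, both tissue isoforms took a larger share in RA-treated DKO cells. Cox6b2 made up 15.5 to 18.3% of Cox6b1 and Cox6b2 in RA-treated DKO, against 7.19 to 8.47% in RA-treated WT libraries. Cox7a1 made up 9.37 to 12.5% of Cox7a1 and Cox7a2, against 4.15 to 5.52%. The widely used isoform remained the larger one in all 12 libraries. Without RA the share of Cox7a1 was 8.04 to 9.17% in DKO and 7.69 to 9.77% in WT libraries, which overlapped, and that of Cox6b2 was 12.8 to 15.7% in DKO and 10.4 to 11.3% in WT libraries, which did not. Muscle is the tissue of Cox7a1, and the 8 muscle markers summed to normalized counts of 1423 to 1521 in RA-treated DKO, against 3491 to 3738 in RA-treated WT libraries, most of them from the intermediate filament gene Des. Of the 6 tested, Myh7 was called higher in RA-treated DKO cells, and Des and Actc1 lower. The muscle-defining factors Myod1 and Myog had 6 and 14 reads over the RA-treated DKO, against 6 and 8 over the RA-treated WT libraries.

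The tissue isoforms with few reads gave little more. Cox4i2, the lung isoform of subunit 4, had 44.6, 40.4 and 12.5 in RA-treated DKO and 59.4, 65.2 and 41.3 in RA-treated WT libraries, which overlapped (−0.91 ± 0.47, adjusted p = 0.127). Cox7b2 and Cox8c, known from testis, had at most 24.3 in any library and were not called between genotypes. Cox6a2, the heart and muscle isoform of subunit 6a, had 12 reads over the RA-treated DKO, 10 over the RA-treated WT, 2 over the Serum/LIF DKO and 6 over the Serum/LIF WT libraries, and Ndufb4c at most 8 reads over any group. Those last 2 genes were not tested.

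In Serum/LIF, where the cells were undifferentiated, few subunit genes differed by genotype. Of the 84, 12 were called lower in DKO cells, against 15.4% of all genes, and 1 was called higher, against 17.8% of all. The share called lower, 14.3%, was thus close to that of all genes. The subunit median was −0.05, with −0.01 over all genes. Its SD for a contrast of single libraries was 0.08. The median rests on group means, for which the spread is smaller. Apart from Ndufa4l2, the genes called lower changed by −0.20 to −0.11. Without Serum/LIF WT replicate 3, the counts were 6 lower and 7 higher and the median was −0.01, and without Serum/LIF DKO replicate 1 they were 7 lower.

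Genes called lower in Serum/LIF included Ndufa4l2, Ndufb10, Ndufs1, Ndufv1, Ndufv2, Sdhc, Uqcrc2, Uqcrq, Cox6c, Atp5a1 and Atp5o. Several encode catalytic or core proteins. Atp5a1 had 39426, 41159 and 40542 in DKO, against 43598, 43533 and 44093 in WT libraries (−0.12 ± 0.03, adjusted p = 0.00367, a call lost with quantile normalization at −0.07 and adjusted p = 0.0839), and Uqcrc2 had 6257, 6385 and 5868 against 7148, 6925 and 6946 (−0.18 ± 0.04, adjusted p = 0.00224). Ndufv1 had 5054, 5029 and 5268 against 5588, 6056 and 6050 (−0.20 ± 0.04, adjusted p = 0.000971). These groups did not overlap. Cox6b2 was the gene called higher, with 732, 573 and 607 in DKO, against 441, 462 and 486 in WT libraries (0.45 ± 0.10, adjusted p = 0.00107). The calls of Cox6c, Atp5o and Uqcrq were lost without Serum/LIF WT replicate 3, at adjusted p values of 0.322, 0.116 and 0.267, and each also without Serum/LIF DKO replicate 1, at 0.193, 0.095 and 0.17. Cox6c lost it as well without Serum/LIF DKO replicate 3 (0.0908), RA-treated DKO replicate 1 (0.057) or RA-treated WT replicate 1 (0.0518), Atp5o without Serum/LIF DKO replicate 3 (0.06) or WT replicate 2 (0.0617), and Uqcrq without Serum/LIF DKO replicate 2 (0.0948) or WT replicate 2 (0.0517).

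Ndufa4l2, a paralogue of Ndufa4 that is known as a target of hypoxia-inducible factor, had the largest change of a subunit gene in either condition. It had 61.9, 49.3 and 22.5 in Serum/LIF DKO, against 199, 241 and 161 in Serum/LIF WT libraries, 0.223 times the WT level (−2.24 ± 0.29, adjusted p = 1.53e-06). After RA it had 26.5, 39.5 and 32.2 in DKO, against 72.1, 77.3 and 65.5 in WT libraries (−1.12 ± 0.29, adjusted p = 0.0032). The groups did not overlap in either condition. Its transcript overlaps Shmt2 on the other strand, and without stated strand settings the reads of the pair cannot be told apart. Shmt2, at a mean of 7507 in Serum/LIF DKO and 8347 in Serum/LIF WT libraries, changed by −0.15 (adjusted p = 0.00851). Of 18 listed hypoxia-inducible genes, 14 were called lower in DKO cells in Serum/LIF and 13 after RA, against 15.4% and 20.7% of all genes, with none called higher. Among them Ldha, lactate dehydrogenase A, stood at −0.69 in Serum/LIF and −1.24 after RA, and Pdk1, a kinase that holds back entry of pyruvate into the citric acid cycle, at −0.55 and −0.52.

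Across both conditions, 6 subunit genes were called lower in DKO cells in each, 1 (Cox6b2) was called higher in each, and 29 were called lower after RA while not called in Serum/LIF. The share of all genes with these patterns was not counted, so the counts only describe the subunit genes. A call in 1 condition alone does not show a difference, so the interaction was tested for each gene. It was called in 24 of the 84: 18 lower, against 16.0% of all genes, and 6 higher, against 14.8% of all, with a subunit median of −0.09 and 0.00 over all genes. Without RA-treated WT replicate 2 there were 15 lower, against 15.1% of all genes, and 6 higher, against 14.2%. The median moved to −0.05 without Serum/LIF WT replicate 1 or Serum/LIF DKO replicate 3 and to −0.14 without Serum/LIF WT replicate 3. Its SD for a contrast of single libraries was 0.10, while the median rests on group means, for which the spread is smaller. Besides the genes above, Uqcrh (−0.46), Cox6b1 (−0.46), Atp5c1 (−0.43), Ndufb9 (−0.40) and Atp5md (−0.53) were lower, while Cox7a1 (0.83 ± 0.23, adjusted p = 0.00679) and Cox6b2 (0.47 ± 0.14, adjusted p = 0.0129) were higher.

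Most subunit genes had lower levels in RA-treated than in Serum/LIF cells of both genotypes. The RA-treated cells also lacked LIF, so RA and LIF withdrawal cannot be told apart. In DKO cells 71 of 84 were called lower in RA than in Serum/LIF, against 38.2% of all genes, and 4 higher, against 40.2%. In WT cells 64 were called lower, against 39.2% of all genes, and 10 higher, against 41.4%. The subunit medians were −0.51 in DKO and −0.43 in WT cells, with 0.04 over all genes in each. Without RA-treated WT replicate 2, 62 were called lower in WT cells, against 38.5% of all genes, and 9 higher, against 40.3%. The subunit median was then −0.45. When libraries were scaled to equal totals, the median of all genes moved to 0.27 in DKO and 0.29 in WT cells and the subunit medians to −0.28 and −0.17, with 10 and 21 subunit genes called higher. Such scaling shifts all genes of a library alike, so it leaves the subunit median relative to that of all genes, −0.55 in DKO and −0.47 in WT cells, in place by construction. With quantile normalization, which does not, that difference was −0.42 in DKO and −0.29 in WT cells.

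All 17 tested ATP synthase genes and all 8 complex III genes were called lower with RA in DKO cells, and 16 and 7 of them in WT cells. Atp5g1, a gene for the ring protein, had 2977, 2925 and 2881 in RA-treated DKO, against 7334, 6750 and 7765 in Serum/LIF DKO libraries (−1.31 ± 0.06, adjusted p = 3.59e-16), and 3423, 3604 and 3204 in RA-treated WT, against 6791, 7322 and 7972 in Serum/LIF WT libraries (−1.11 ± 0.06, adjusted p = 7.38e-15). Its drop was larger than that of the other ring genes: per kilobase, Atp5g1 made up a mean of 24.0% of the 3 ring genes in RA-treated DKO and 34.8% in Serum/LIF DKO cells, and 24.7% in RA-treated WT and 34.2% in Serum/LIF WT cells. Uqcr10, a small complex III subunit, changed by −1.12 in DKO and −1.06 in WT cells, and Cox7c, of complex IV, by −1.09 and −1.01. The catalytic Atp5b changed by −0.83 and −0.86.

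The RA changes of the 2 genotypes followed each other across the 84 genes (r = 0.80, a description across genes, which are not independent), and the log2 change was the lower one in DKO cells in 64 of them. The interaction was called in 18 of those 64. Neither the correlation nor the count of 64 was computed over all genes for comparison. Atp5pb, Cox4i1 and Ndufa11 were called lower with RA in DKO cells (−0.44, −0.34 and −0.18) and higher with RA in WT cells (0.35, 0.38 and 0.33). The direction in DKO cells rests on the scaling for Ndufa11, at 0.056 with equal totals, and for Cox4i1, at 0.081 with quantile normalization. The Ndufa11 call in DKO cells was also lost without Serum/LIF DKO replicate 3 (adjusted p = 0.0768) or RA-treated DKO replicate 1 (0.0538). Genes called higher with RA in both genotypes were Ndufa13 (0.25 in DKO, 0.34 in WT cells), an accessory subunit also known as a cell death regulator, Ndufb11 (0.27 and 0.50) and Sdhc (0.11 and 0.17). The Sdhc call in DKO cells was lost without Serum/LIF DKO replicate 2 (adjusted p = 0.0845), RA-treated DKO replicate 1 (0.0875) or RA-treated DKO replicate 2 (0.0533). Ndufb11 overlaps Rbm10 on the other strand.

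**Figure D4:**
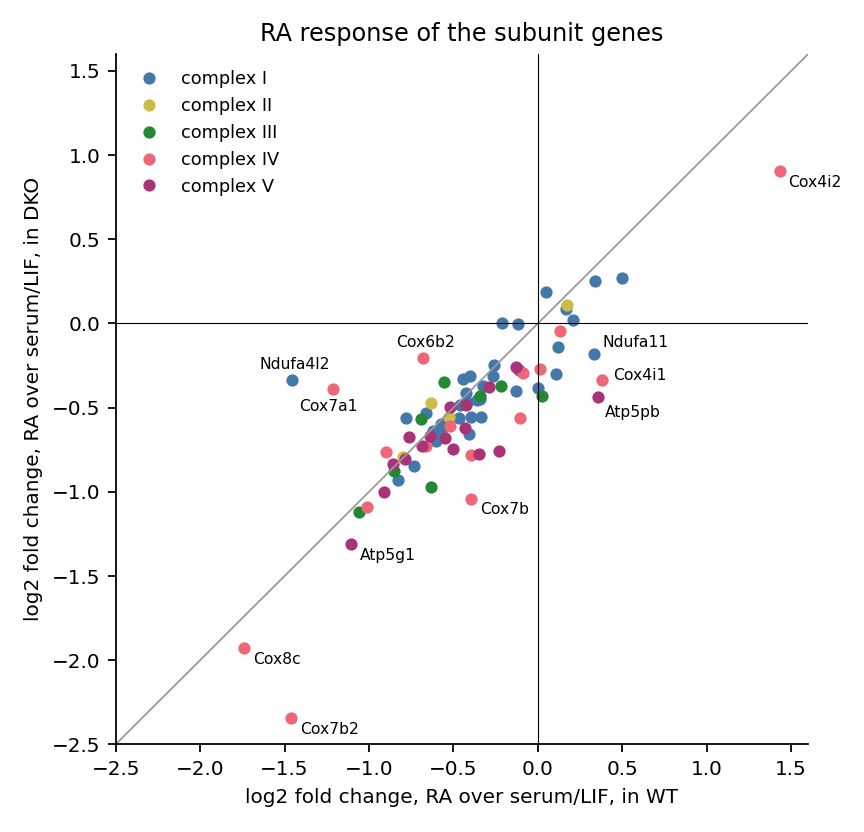
Log2 fold change of RA over Serum/LIF in DKO cells (vertical axis) against that in WT cells (horizontal axis) for 84 tested subunit genes, coloured by complex, with the line of equal change. In DKO cells 71 genes are called lower with RA and in WT cells 64, and 64 genes lie below the line of equal change. Genes below the line were not counted over all genes.

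Genes that build or feed the chain were counted from lists chosen for the pathway, to be read against the 20.7% of all genes lower and 22.0% higher after RA, and 15.4% and 17.8% in Serum/LIF. Of 49 tested assembly factors, 13 were called lower and 4 higher in DKO than in WT cells after RA, and 6 and 1 in Serum/LIF. Among them Cox11, which delivers copper to complex IV, changed by −0.65 ± 0.06 after RA (adjusted p = 3.32e-09). Of 26 genes of mitochondrial DNA expression and biogenesis, 7 were called lower and 1 higher after RA, and Ssbp1, the mitochondrial single-strand DNA binding protein, changed by −0.64 ± 0.06 (adjusted p = 2.28e-09). Of 18 electron carrier genes, 4 were called lower and 3 higher after RA. Of 18 citric acid cycle genes, 4 were called lower and 2 higher after RA, and 7 and 1 in Serum/LIF. In these 4 lists 22.2 to 26.9% were lower after RA, close to the share of all genes. The shares called higher were below the 22.0% of all genes. They were 8.16% for assembly factors, 3.85% for mitochondrial DNA expression and biogenesis, 16.7% for electron carriers and 11.1% for the citric acid cycle. In Serum/LIF 38.9% of citric acid cycle genes were lower, against 15.4% of all. Mdh2, the malate dehydrogenase of that cycle, averaged 10535 in RA-treated DKO, against 19560 in RA-treated WT libraries (−0.89, adjusted p = 1.4e-14).

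Markers of cell state also differed between the genotypes after RA. Their counts are to be read against all tested genes. Of these, 20.7% were called lower and 22.0% higher after RA, and 15.4% and 17.8% in Serum/LIF. All 8 pluripotency markers, against 22.0% of all genes, were called higher in DKO than in WT cells after RA, and their summed normalized counts were 6255 to 6761 against 3835 to 3960. Of 10 neural markers 9 were called lower and 1 higher, with sums of 13319 to 13500 against 16566 to 17136. The fibroblast and mesenchyme markers had 5 of 9 called higher and the endoderm markers 5 of 8, with none lower in either list. Without RA-treated WT replicate 2, 3 endoderm markers were called higher, against 19.8% of all genes. In Serum/LIF the pluripotency sums were 105818 to 109062 in DKO and 118139 to 121280 in WT libraries, with 4 of the 8 called lower in DKO cells. There 6 neural markers were called higher and 2 lower, 8 of 9 fibroblast and mesenchyme markers higher, with sums of 22162 to 23529 in DKO and 7315 to 7412 in WT libraries, and 5 of 8 endoderm markers higher. The part of these differences in the subunit levels was not tested.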

How the data were processed

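RNA of 12 libraries was measured. Per the submitters' processing notes, reads were handled with Trim Galore 0.6.10, STAR 2.7.11b, featureCounts (Subread 2.0.6) and DESeq2 1.44.0 on mm10. The authors deposited read signal per gene as normalized counts, each library divided by a size factor, with genes and repeats in separate tables. All values (100%, to within 0.01 read) came back as whole reads. The deposited table carries no strand or multi-mapping setting. Recovered counts from 1 to 29 were even in 80.2% of cases, against 50.3% of high counts, so that reads may not be independent fragments and no counting intervals are given.

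Values were tested as log2(normalized count + 1) with limma 3.58.1 in R 4.3.3 (trend and robust settings, 12 libraries in 1 fit, no replicate block), with Benjamini-Hochberg adjustment over 15750 genes with 10 or more in at least 3 libraries. Fold changes are on that scale, which understates those of low genes. Count tests were alternatives: edgeR 4.0.16 on recovered reads called 5323 genes for genotype in Serum/LIF, 7097 after RA, 12317 for RA in DKO, 12721 for RA in WT and 4985 for the interaction, against 5230, 6727, 12340, 12695 and 4852 with limma; DESeq2 1.42.0 was also run. Other alternatives were scaling, pseudocount, filter and leaving out each library.

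The subunit genes and all lists were chosen with earlier results of these data known. Genes shown by library were taken from paralogous isoforms, core subunits and, per comparison and complex, up to 2 called genes a direction with the largest change and a mean of 100 or more; the rest of these appear as changes or calls only. Some values are not reported here. Ndufa7 was added for its promoter window after its values were seen. Promoters came from the RefSeq table of GRCm38.p6 (250 bases before to 50 after each start).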

Additional observations from a re-analysis of the deposited data

Results flagged for a closer look

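The genotype effect after RA differed from that in Serum/LIF for 24 of the 84 tested subunit genes, by the interaction term of the limma fit with Benjamini-Hochberg adjustment over all genes. It was lower in 18, against 16.0% of all genes, and higher in 6, against 14.8%. The log2 difference was −0.79 for Atp5pb, −0.72 for Cox4i1, −0.64 for Cox7b, −0.53 for Atp5md, −0.51 for Ndufa11, −0.46 for Cox6b1, −0.46 for Uqcrh and −0.43 for Atp5c1. It was −0.40 for Ndufb9, −0.38 for Cox7a2, −0.38 for Ndufs5, −0.34 for Uqcrq, −0.28 for Cox5b, −0.27 for Ndufa4, −0.25 for Atp5j, −0.23 for Ndufb11, −0.19 for Atp5h and −0.18 for Cox7a2l. On the other side it included 0.16 for Sdha, 0.21 for Uqcrc2, 0.47 for Cox6b2, 0.83 for Cox7a1 and 1.12 for Ndufa4l2.

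Some of these calls were close to the threshold. That of Atp5h (adjusted p = 0.0499) was lost without any 1 of 9 libraries and under 5 other alternatives, at adjusted p values of up to 0.168. That of Cox5b was lost without Serum/LIF DKO replicate 3 (0.0531) or WT replicate 1 (0.053), and without the trend and robust settings (0.0986). That of Uqcrc2 was lost with quantile normalization (0.0678) and without the trend and robust settings (0.0576). That of Sdha was lost with quantile normalization (0.0915), and without Serum/LIF DKO replicate 1 (adjusted p = 0.051) or RA-treated DKO replicate 1 (0.056). That of Ndufa4l2 (adjusted p = 0.0423) was lost without Serum/LIF DKO replicate 3 (0.133), WT replicate 1 (0.0732) or WT replicate 2 (0.114), and without RA-treated DKO replicate 2 (0.103), DKO replicate 3 (0.0658), WT replicate 1 (0.068) or WT replicate 3 (0.0749). Those of Ndufb11 (adjusted p = 0.0413) and Cox7a2l (adjusted p = 0.0446) were each lost when any 1 of 9 libraries was left out.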

How the results depend on the processing

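Of 496 counts and medians recomputed under 25 alternatives, 478 kept their size class. A count kept it within a set ratio of the main count, and a median when it moved by less than its SD for a contrast of single libraries. Direction was not part of that check, but no subunit median changed sign. Over the genes named, 6101 recomputed values kept their side of the threshold, 146 lost their call, 53 gained one and 9 turned in sign where a call was made; counting changes that were never called, 121 changed sign. In Serum/LIF the genes called higher, 1 here, were 3 with libraries scaled to equal totals, 2 with quantile normalization and 1 to 7 with each library left out; those called lower, 12 here, were 7 with quantile normalization, 6 without the trend and robust settings and 6 to 13 with each library left out. After RA the 4 called higher were 2 to 4 with each library left out. For RA in DKO cells the genes called higher, 4 here, were 10 with equal totals and 2 to 5 with each library left out, and the median of −0.51 became −0.28 with equal totals, −0.48 with upper quartile scaling, −0.45 with quantile normalization and −0.55 to −0.51 with each library left out. For RA in WT cells the genes called higher, 10 here, were 21 with equal totals, and the median of −0.43 became −0.17 with equal totals and −0.33 with quantile normalization. The sign of the RA change in WT cells turned with equal totals for Atp5md (0.033), Cox6a1 (0.17), Cox6b1 (0.15), Ndufa4 (0.13) and Ndufs5 (0.26), and with quantile normalization for Cox6b1 (0.047). In DKO cells it turned with equal totals for Cox7a2l (0.19) and Ndufa11 (0.056) and with quantile normalization for Cox4i1 (0.081). The cause was not tested. The replicate numbers did not pair the samples: same-numbered libraries correlated at −0.03 to 0.05 over 18 pairs, and 5 of 12 libraries correlated best with their own number. With the replicate block, 11 and 35 subunit genes were called lower for genotype in Serum/LIF and after RA, 71 and 63 for RA in DKO and WT cells, and 16 in the interaction. With edgeR the interaction gave 21 lower and with DESeq2 18. Depth limits what can be said of Cox4i2, Cox7b2, Cox8c, Cox6a2 and Ndufb4c.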

Other observations

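The element TCTCGCGA, found before or just after the start of Atp5pb, Cox7b, Ndufa11 and Ndufa7, was followed in all tested genes with a RefSeq promoter window. Of 274 such genes that hold it, 200 (73.0%) were called lower in DKO than in WT cells after RA and 8 (2.92%) higher, while of the 12112 without it 19.6% were called lower and 22.6% higher. Without the 4 subunit genes, 196 of 270 (72.6%) were called lower. In Serum/LIF the same 274 genes had 44 called lower (16.1%) and 29 higher. The interaction was called lower in 167 (60.9%) and higher in 2. The counts are a description of a set found in these data, with no test of its own. Alternatives added after the data were seen gave 199 lower after RA without RA-treated WT replicate 2, with the interaction lower in 168, and 205 lower after RA with libraries scaled to equal totals.

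Genes with the other motifs were called lower in smaller shares. Those with the ETS core were called lower after RA in 29.4%, with the NRF1 core in 18.7%, YY1 in 16.6%, CRE in 22.4% and HRE in 21.5%. The element is known as a binding sequence of BANP at CpG-island promoters in mouse stem cells.

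Of the other pathway genes listed, 6 hold the element, and all 6 were called lower in DKO cells after RA: Cox11 (−0.65), Ssbp1 (−0.64), Mdh2 (−0.89), Coq9 (−0.29), Idh3g (−0.30) and Higd1a (−0.24). Coq9 takes part in making ubiquinone and Idh3g is a subunit of the citric acid cycle's isocitrate dehydrogenase. Among the other list genes, Ppargc1a, a coactivator of mitochondrial biogenesis, was called lower by −2.03 ± 0.52 after RA (adjusted p = 0.0028) and Cyct, the testis cytochrome c, by −1.01 ± 0.14 (adjusted p = 2.1e-06). Ppargc1a stood at −2.02 in Serum/LIF, so its lower level was not particular to RA. The lowest change among the electron carrier genes in Serum/LIF was −0.96.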
